A study of Mus musculus with 4 samples.

Results

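The 10 genes described here make and control major histocompatibility complex (MHC) class II presentation: H2-Aa, H2-Ab1, H2-Eb1, Cd74, H2-DMa, H2-DMb1, H2-DMb2, H2-Oa, H2-Ob and Ciita. They were chosen by symbol, and all 10 were found among the 32285 genes of the deposited tables. They were read in blood mononuclear cells of 2 inbred mouse strains, BL/6 and SM/J, at 12 and 20 months of age, with no drug and no engineered allele named in the labels. Each strain was 1 single-cell 10x 3' sample in which both ages were mixed and marked by tag oligos, and the files divide the cells by strain and age into 4 libraries. Each library holds 3 tag oligos. Cells sharing one are called an aliquot, since no label says whether a tag marks an animal, and aliquots were not treated as replicates. A group was therefore 1 library, so no test was made, and intervals are 95% intervals for counting error only. Strain, 10x run and the fit of reads to the reference haplotype cannot be told apart, because the class II genes of the strains differ in sequence and each strain was its own run.

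Class II molecules are pairs of an alpha and a beta chain that show peptides from endosomes to CD4 T cells. The invariant chain, encoded by Cd74, fills their groove during transport. The DM heterodimer then swaps its last fragment for peptides, and the DO heterodimer, known mainly from B cells, holds DM back. Ciita is the main coactivator of class II genes. B cells and dendritic cells carry class II without stimulation, monocytes and macrophages vary, and mouse T cells are known to make little or none, which makes T cells a measure of the RNA that leaks between droplets.

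In mm10 the 8 H2 genes lie together on chromosome 17, between the start of H2-Oa at 34092340 and the end of H2-Eb1 at 34316674, with H2-Ab1 at chr17:34257689-34269419 and H2-Aa at chr17:34282744-34287823. Ciita lies apart, at chr16:10480059-10528418. Class II promoters are known for an X box bound by the RFX complex and a Y box bound by NF-Y, the platform on which Ciita sits. RefSeq promoters (GRCm38.p6, from 250 bases before each start site) were at hand for 7 members. TGATTGG, a form of the Y box, was found on either strand in 6 of those 7 and in 7.23% of all 32851 promoters. A form of the X box was found on either strand in 3 of 7 and in 0.594% of all promoters, and the X and Y forms stood together in 0.0639%. The windows of 70 bases below are shown because they carry these shared letters, in capitals, on the strand of the gene.
H2-Aa, chr17:34287859-34287928, minus strand: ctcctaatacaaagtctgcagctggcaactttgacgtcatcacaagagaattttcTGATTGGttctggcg
H2-Eb1, chr17:34305751-34305820, plus strand: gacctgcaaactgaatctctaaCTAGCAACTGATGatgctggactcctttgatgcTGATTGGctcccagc
H2-DMb1, chr17:34153073-34153142, plus strand: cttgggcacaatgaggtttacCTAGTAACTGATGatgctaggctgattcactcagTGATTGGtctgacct
H2-DMb2, chr17:34145102-34145171, plus strand: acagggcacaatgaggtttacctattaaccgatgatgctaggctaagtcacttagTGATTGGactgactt
H2-Oa, chr17:34092279-34092348, plus strand: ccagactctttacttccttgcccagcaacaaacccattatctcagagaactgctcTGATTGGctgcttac
H2-Ob, chr17:34238791-34238860, plus strand: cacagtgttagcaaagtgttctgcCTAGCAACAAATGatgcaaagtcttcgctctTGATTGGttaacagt
The distance from the start of the X form to the start of the Y form was 33 bases in H2-Eb1, 34 in H2-DMb1 and 31 in H2-Ob. H2-DMa was the 1 of 7 with neither form in the window. A match describes letters and is not a measured binding site.

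After filtering, 2407 to 3398 cells per library remained, with median depths of 4060 to 8837 UMIs (counted molecules) per cell. The library of SM/J at 20 months was the deepest. Pairs of libraries shared 0 to 3 cell barcodes. Cells were clustered without class II genes, and clusters were named from marker lists. B cell-like cells numbered 952 to 2005 per library, T cell-like cells 228 to 529, classical monocyte-like cells 112 to 496 and nonclassical monocyte-like cells 156 to 673. Cavity-type macrophages were taken as all cells with at least 5 UMIs of Prg4, which gave 29 and 38 cells for BL/6 against 35 and 397 for SM/J (12 and 20 months). A cluster of 29 to 53 cells per library was named plasmacytoid dendritic cell-like. No cluster was named conventional dendritic cell-like, and those cells were not analysed as a class. Levels are CPM, the UMIs of a gene scaled to the same total in each class and library, and 10x 3' UMIs do not scale with transcript length.

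Class II expression was highest in the dendritic cluster and in B cells. H2-Aa, H2-Ab1, H2-Eb1 and Cd74, called the core genes here, summed to 15765 and 14681 CPM in BL/6 B cells (12 and 20 months). In SM/J B cells the sums were 11513 and 11066 CPM. The dendritic cluster gave 18060 and 17586 CPM for BL/6 against 10688 and 20177 for SM/J. By summed UMIs the order dendritic, B, classical monocyte was the same in 3 libraries, and in SM/J at 12 months B cells came before the dendritic cluster, whose aliquots there ranged from 7815 to 14114 CPM and spanned the B cell level. In BL/6 at 12 months the aliquots of both classes overlapped too (15338 to 20580 and 15569 to 15939 CPM). By median cell B cells were above the dendritic cluster in all 4 libraries, at up to 1.59% of UMIs against up to 1.07%. T cells had 104 to 228 CPM. Of the core genes, Cd74 alone lies outside the MHC, at chr18:60803848-60812652 in mm10.

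**Figure D1:**
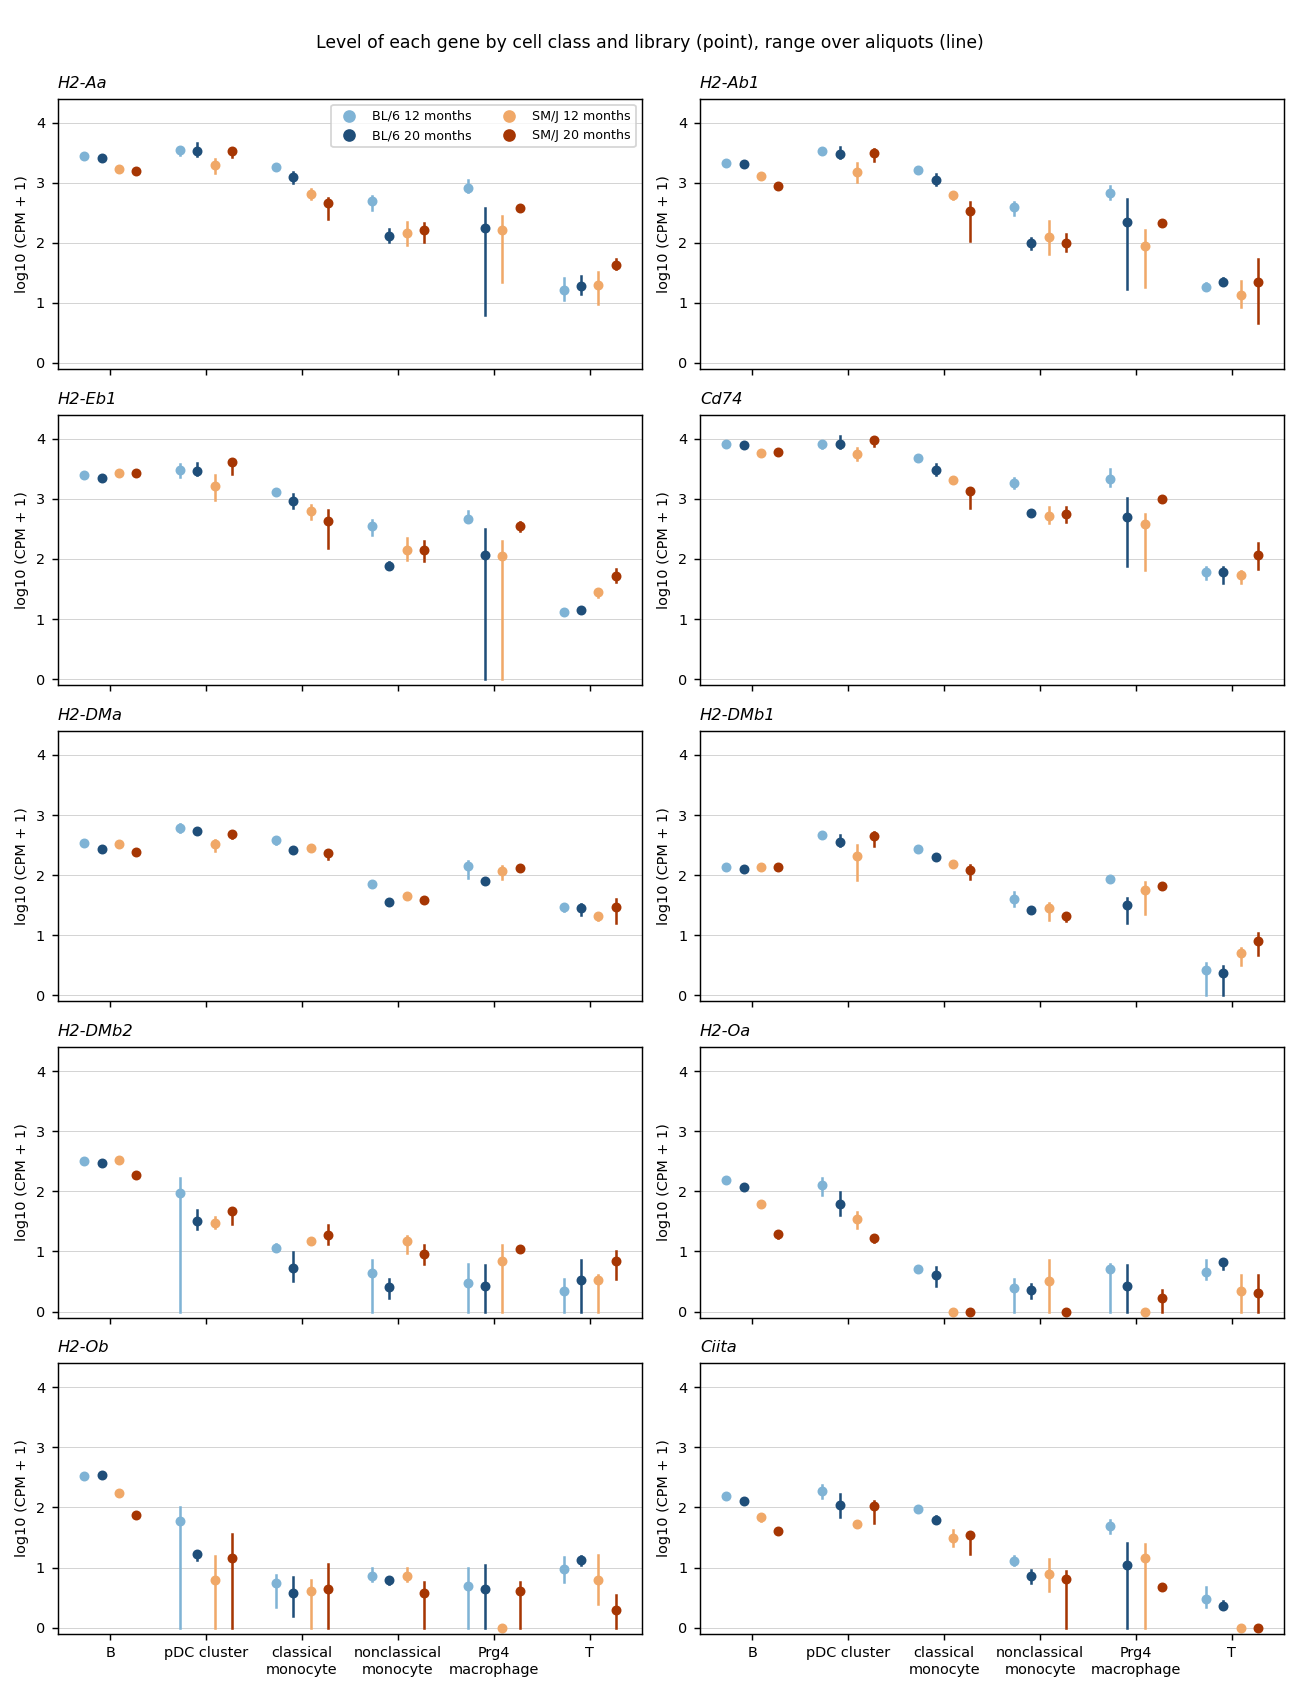
Levels of the 10 members in 6 cell classes, in CPM on a log scale of CPM + 1, with 1 point for each library and lines for the range over its aliquots. H2-DMb2, H2-Oa and H2-Ob are at 18.3 to 353 CPM in B cells and below 20 CPM in monocytes and macrophages, while the core genes span all presenting classes.

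The heterodimer that swaps peptides and its inhibitor differed in where they were expressed. H2-DMa, the DM alpha chain, was at 340 and 271 CPM in BL/6 B cells, 324 and 241 in SM/J B cells, and 237 to 390.5 in classical monocytes, so B cells and classical monocytes overlapped in level. H2-DMb1 had 126 to 138 CPM in B cells and 122 to 267 in classical monocytes. H2-DMb2, the other DM beta chain gene, had 185 to 330 CPM in B cells and only 4.26 to 17.7 in classical monocytes. The ratio of H2-DMb2 to H2-DMb1 was 2.37, 2.38 and 2.43 in B cells of the first 3 libraries and 1.34 in SM/J at 20 months. In classical monocytes that ratio was 0.0214 to 0.145, and in the dendritic cluster it was 0.20, 0.0878, 0.141 and 0.101. Of the 451 words of 50 bases in the last 500 bases of H2-DMb1 transcripts, 92 (20.4%) also occur in H2-DMb2, so some H2-DMb1 reads may be split or lost between them. Of the 451 words of H2-DMb2, 0 occur in another member.

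The DO chains were highest in B cells in all 4 libraries. H2-Oa had 153 and 118 CPM in BL/6 B cells, 61.0 and 18.3 in SM/J B cells, 15.8 to 124 in the dendritic cluster and 0 to 4.18 in classical monocytes. H2-Ob had 332 and 353 CPM in BL/6 B cells, 175 and 72.8 in SM/J B cells and 2.77 to 4.56 in classical monocytes. In SM/J classical monocytes no H2-Oa UMI was seen, which by a limit of 3 counts allows up to 3.01 CPM at 12 months and 3.32 CPM at 20 months. DM alpha to DO beta, as the ratio of H2-DMa to H2-Ob, was 1.02 and 0.769 in BL/6 B cells, 1.86 and 3.31 in SM/J B cells, and 71.3 to 93.7 in classical monocytes. The monocyte ratios rest on 3 to 13 UMIs of H2-Ob.

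Ciita, the coactivator, was at 154 and 129 CPM in B cells of BL/6, and at 67.2 and 39.7 in those of SM/J. In classical monocytes it was at 94.6 and 61.6 CPM for BL/6 against 30.1 and 33.2 for SM/J. Across 22 sums of a class and library with at least 50 cells, Ciita followed the summed core genes with a Pearson correlation of 0.911 on log2(CPM + 1), against 0.933 for H2-DMa, 0.784 for H2-DMb2, 0.567 for H2-Oa and 0.560 for H2-Ob. These sums share libraries and depth. The 5 genes outside the members that were most like the core sum over the same 22 sums were Serp1 (0.947), Ly86 (0.936), Fgd2 (0.917), Ctsh (0.914) and B3gnt8 (0.910).

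In B cells the strain ratio divided the members. SM/J had lower H2-Aa at 12 months, 1708 against 2829 CPM (log2 ratio -0.73, interval -0.76 to -0.70). H2-Ab1 was also lower, 1269 against 2144.5 CPM (-0.76). H2-Eb1, the beta chain of the E molecule, was close to level at 2692 against 2535 CPM (0.09, 0.06 to 0.12). The ratio of H2-Eb1 to H2-Ab1 was 1.18 and 1.11 for BL/6 against 2.12 and 3.03 for SM/J. H2-Eb2, a neighbouring class II locus, was at 69.3 and 62.8 CPM in B cells of BL/6, and at 16.8 and 7.87 in those of SM/J. H2-Ea-ps, the alpha chain gene of E, was not analysed here.

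A call was a difference of 2-fold or more on log2(CPM + 1), counted over all members with more than 3 UMIs in at least 1 of the libraries compared. Between strains at 12 months, 2 of 10 members were lower in SM/J B cells, H2-Oa (-1.31, 2.48-fold) and Ciita (-1.18, 2.27-fold), where 4.72% of all genes were lower by as much. At 20 months, 4 of 10 were lower, where 13.4% of all genes were. H2-Oa was 6.15-fold lower (-2.62), H2-Ob 4.79-fold (-2.26), Ciita 3.19-fold (-1.68) and H2-Ab1 2.31-fold (-1.21). No member was 2-fold higher at either age, where 5.75% and 10.1% of all genes were. The members' median was -0.61 at 12 and -0.70 at 20 months, beside -0.07 and -0.07 over all genes. All 10 members had a mean of 20 CPM or more, and over all genes at that level the medians were -0.09 and -0.22, with 3.5% and 16% of them 2-fold lower. TMM scaling moved every ratio by 0.28 at 20 months, took H2-Ab1 under 2-fold, leaving 3 calls, and turned the direction of H2-DMa from -0.17 to 0.11. Marker sums of other types differed too in these B cells at 20 months. Conventional dendritic markers were at 203 CPM in BL/6 and 30.3 in SM/J, classical monocyte markers at 281 and 57.9, and cavity-type macrophage markers at 44.1 and 83.5. Their part in the class II levels was not tested.

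With age, BL/6 B cells changed little. None of the 10 members was 2-fold different, where 2.95% of all genes were, and 9 of 10 were lower at 20 months, by at most 0.38 (H2-Oa, 153 to 118 CPM). H2-Ob was the exception, 332 at 12 and 353 CPM at 20 months (0.09, -0.01 to 0.18). The ranges of the 3 aliquots did not overlap for 8 of 10 members, where 25.6% of the 5605 genes with a mean of 20 CPM or more did not. In SM/J B cells 2 of 10 members were 2-fold lower at 20 months, where 4.75% of all genes were. H2-Oa was at 61.0 CPM at 12 months (aliquots 55.1 to 66.6) and at 18.3 at 20 months (15.8 to 20.2), a 3.21-fold difference (-1.68, -1.89 to -1.48). H2-Ob was at 175 (165 to 182) and 72.8 CPM (67.1 to 77.7), a 2.38-fold difference (-1.25, -1.36 to -1.14). The aliquot ranges did not overlap for either gene, nor for 70% of genes with a mean of 20 CPM or more. H2-DMb2 (-0.83), Ciita (-0.75) and H2-Ab1 (-0.53) were lower by less than 2-fold, and Cd74 (0.03) and H2-Eb1 (-0.02) were nearly level. TMM scaling moved these ratios by 0.16, which turned the direction of H2-Aa to 0.03 and of H2-Eb1 to 0.14.

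**Figure D2:**
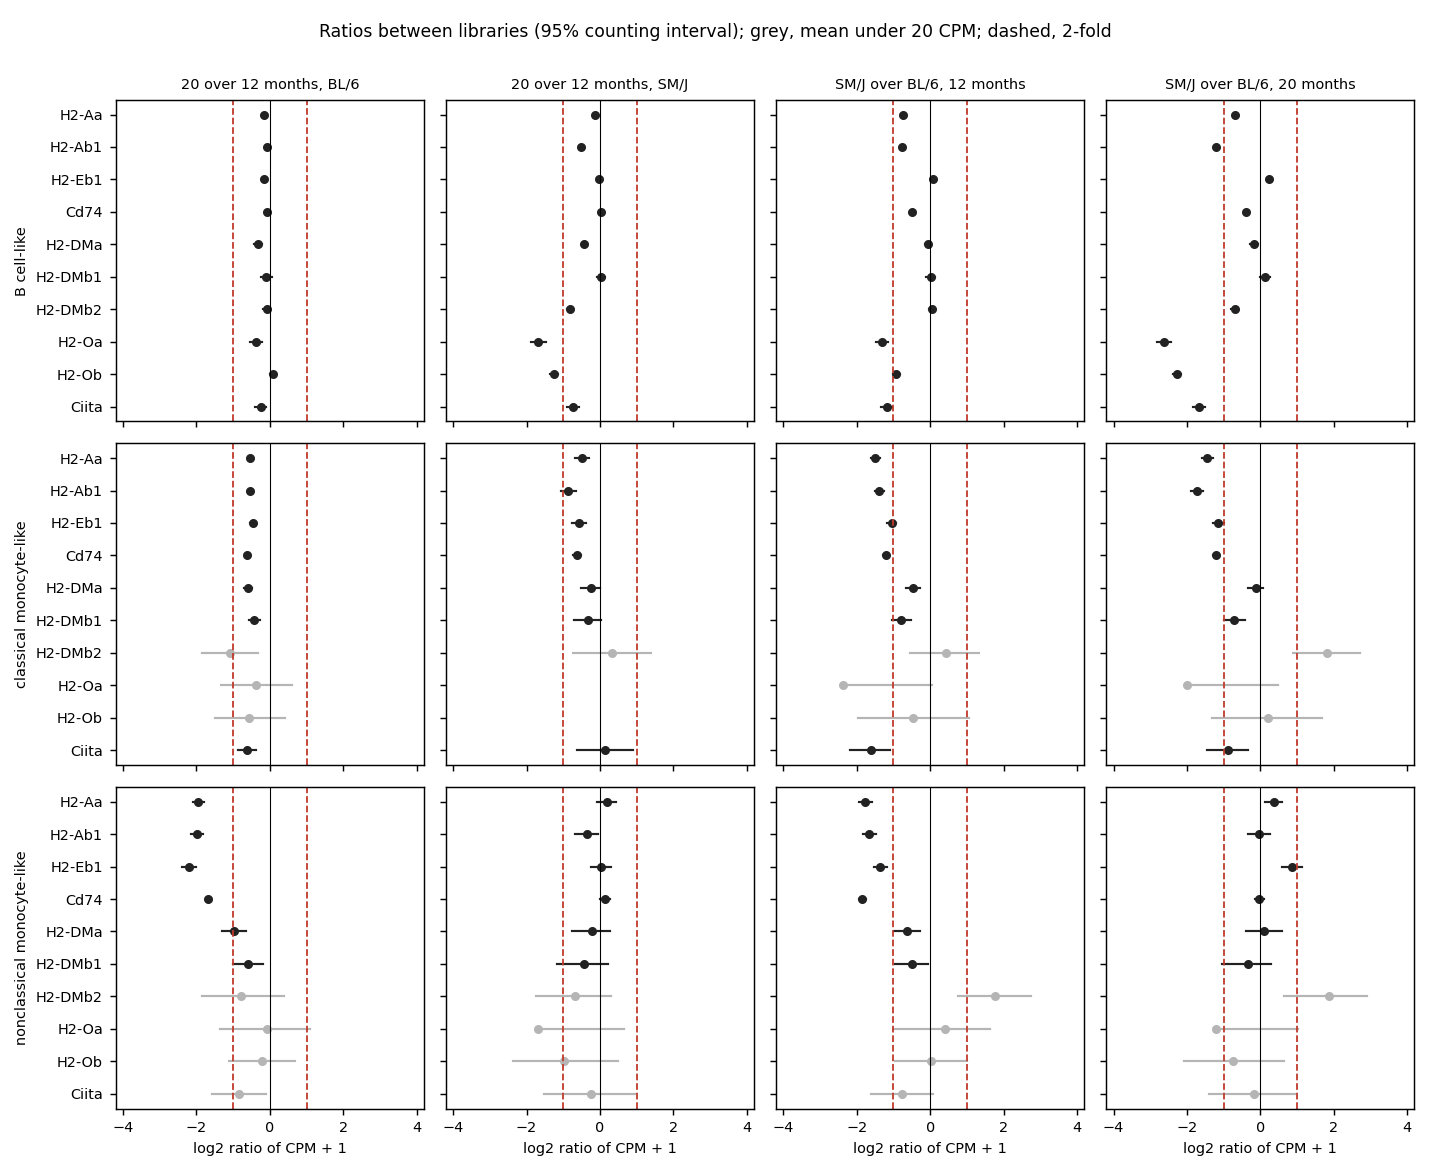
Log2 ratios of CPM + 1 of each member for ages within a strain and for strains within an age, in B cell-like and monocyte-like cells, with lines for the 95% counting interval, dashed lines at 2-fold, and grey for members with a mean under 20 CPM. In B cells H2-Oa lies farthest below 0 in the SM/J age comparison and in both strain comparisons, and in nonclassical monocytes of BL/6 the 4 core genes lie between -1.68 and -2.20 with age.

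Members differed in level between B cell subsets. Subsets are given by cluster number and leading genes. BL/6 B cells were mostly cluster 0, led by the follicular receptor genes Fcer2a and Cr2 (1477 and 634 cells). SM/J B cells at 12 months were mostly cluster 10, with Cpne4, Vpreb3, Fcer2a and Cr2 among its leading genes (528 cells), and cluster 24 with Pigr and Fras1 (404 cells). At 20 months 846 SM/J cells were in cluster 25, led by Krt18, Gnb3 and Zcwpw1, 379 in cluster 5, marked by Lmo7 and Nr3c2, and 201 in cluster 10. No BL/6 cell was in clusters 24 or 25. The subset pairs below were picked after their values were seen.

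The Zcwpw1 cluster had less DO and Ciita than cluster 10 of the same library. In SM/J at 20 months H2-Oa was at 8.94 CPM in cluster 25 and 110 CPM in cluster 10, 11.2-fold lower (-3.48, -3.90 to -3.05). H2-Ob was at 56.1 against 267 CPM, Ciita at 33.5 against 135, H2-DMb2 at 151 against 463 and H2-Ab1 at 778 against 1986. H2-Eb1 (2738 against 3403 CPM) and H2-DMb1 (141 against 169) were lower by less than 1.3-fold. Thus 5 of 10 members were 2-fold lower, where 13.7% of genes with a mean of 20 CPM or more were. The cycling subset of that library, cluster 18, led by Pclaf and Rrm2 (69 cells), had 5.87 CPM of H2-Oa and 16.9 of Ciita.

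The Fras1 cluster was lower across more of the pathway. In SM/J at 12 months its core genes summed to 7378 CPM against 16966 in cluster 10. Ciita was at 30.3 against 124 CPM (-1.99, -2.35 to -1.64), H2-Ob at 107 against 326, H2-Aa at 1088 against 2578 and Cd74 at 3481 against 8808. Of the members, 7 of 10 were 2-fold lower, where 7.19% of genes with a mean of 20 CPM or more were. H2-Eb1 (-0.85), H2-DMb2 (-0.86) and H2-DMa (-0.47) were lower by less.

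Age differences varied between subsets. Of the 6 subsets with at least 50 cells at both ages of a strain, 1 member in 1 subset passed 2-fold. In cluster 10 of SM/J the 10 members differed between ages by at most 0.28, for H2-Ob, and H2-Oa was at 112 and 110 CPM. In cluster 0 of BL/6 they differed by at most 0.20, for Ciita, at 177 and 154 CPM. In cluster 5 of SM/J the largest difference was 0.28, for H2-Oa (37.3 and 45.4 CPM). Other subsets differed more. In cluster 4 of BL/6, led by Agbl1 and Fcrl5, H2-Oa was at 121 and 59.1 CPM (-1.02, -1.5 to -0.56), where 0.953% of genes with a mean of 20 CPM or more were 2-fold lower, and H2-Ob was level at 213 and 215. In cluster 11 of BL/6, H2-Oa (-0.68) and H2-DMb1 (-0.64) were lower by the most. Cluster 24 of SM/J was higher at 20 months in Ciita (30.3 and 53.1 CPM, 0.79), Cd74 (0.66) and H2-Ab1 (0.58).

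The largest subset of each strain at 12 months was then compared. Cluster 10 of SM/J against cluster 0 of BL/6 at 12 months gave H2-Oa -0.61, Ciita -0.51, H2-Ob -0.25, H2-Aa -0.20 and H2-Ab1 -0.13, none 2-fold, where 2.17% of genes with a mean of 20 CPM or more were lower and 1.75% higher, while H2-Eb1 was higher at 0.49, H2-DMb1 at 0.43 and H2-DMb2 at 0.43. Without the Zcwpw1 and Fras1 clusters, 0 of 10 members were 2-fold different between strains at 12 months. At 20 months, where 4 of 10 were in all B cells, members still passed 2-fold without those clusters. With age in SM/J, H2-Oa and H2-Ob remained past 2-fold without those clusters, at -1.15 and -1.19, but were at -0.69 and -0.71 in B cells with a UMI of Fcer2a or Cr2. The SM/J cells left still differed in make-up between ages: cluster 10 held 528 and 201 cells, and the cycling cluster 18 held 1 and 69.

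**Figure D3:**
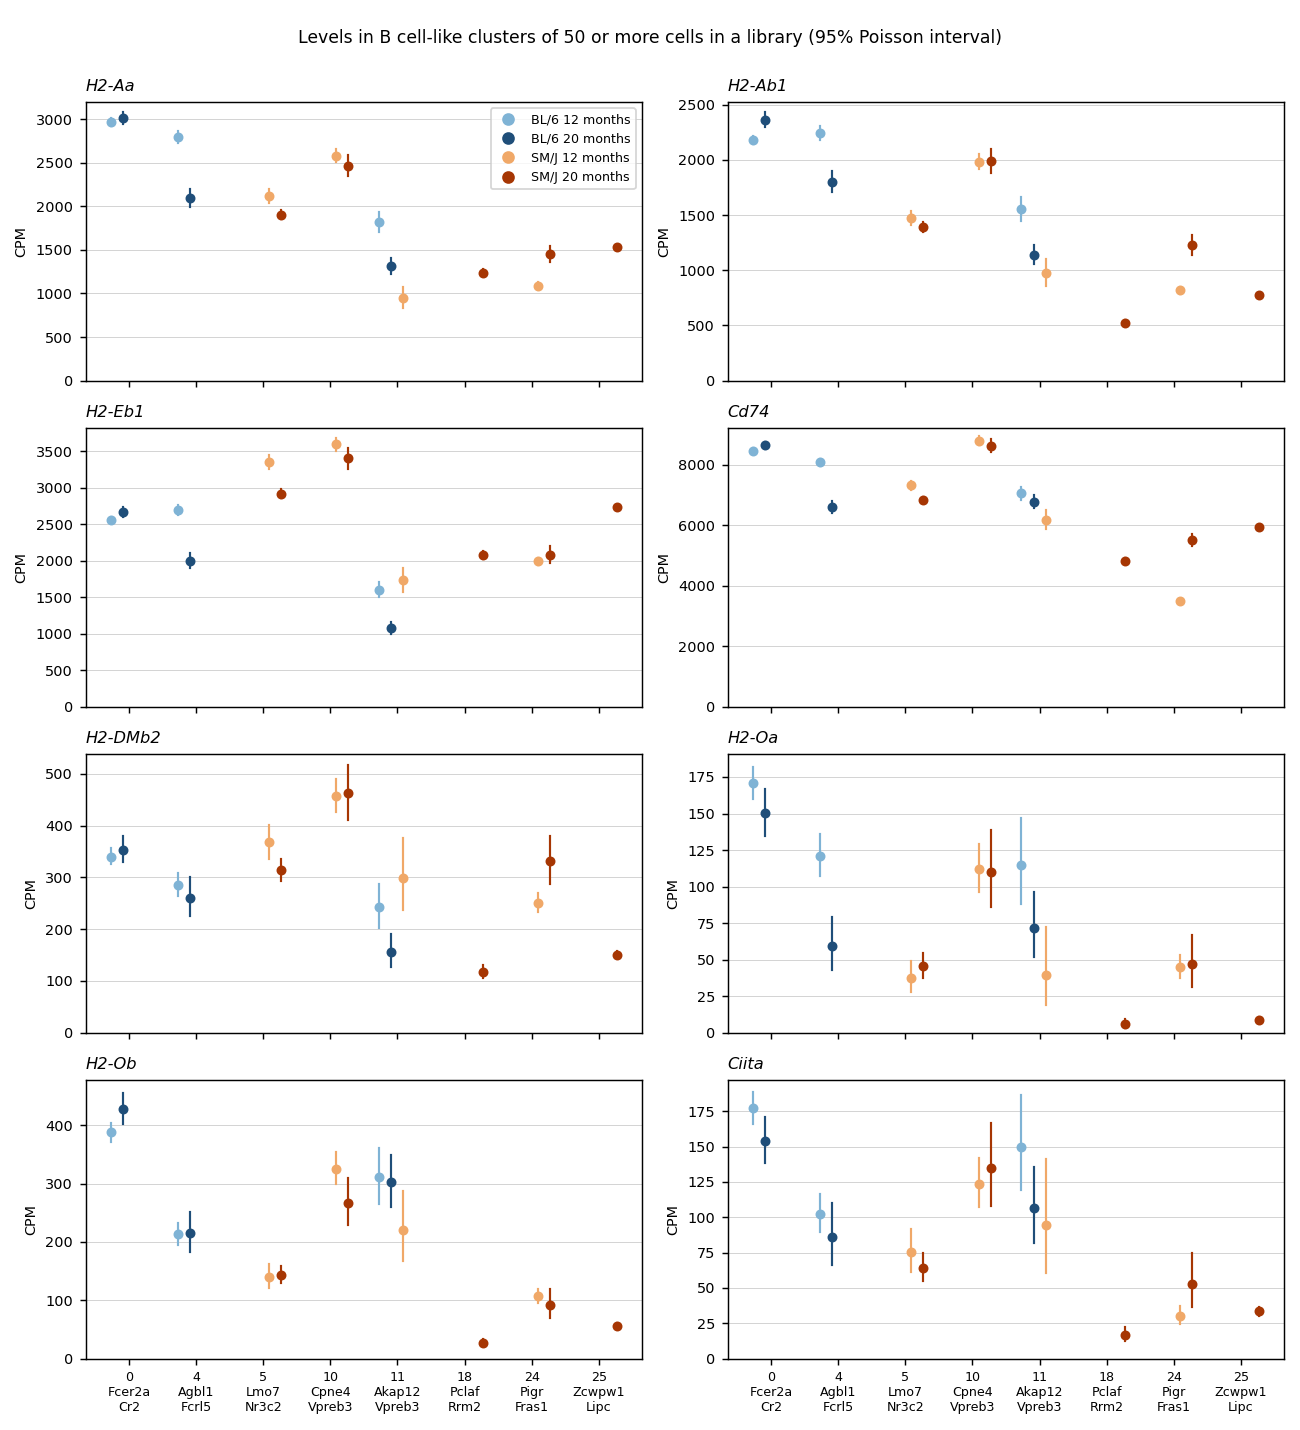
Levels in CPM of 8 members in each B cell cluster and library with at least 50 cells, with 95% counting intervals and clusters marked by number and 2 of their leading genes. H2-Ob and Ciita are lowest in clusters 18, 24 and 25 of SM/J and H2-Oa in clusters 18 and 25, while H2-Eb1 in cluster 25 is at 2738 CPM beside 2561 and 2663 in cluster 0 of BL/6.

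Classical monocytes, the Ly6C-high cells that enter inflamed tissue, had lower class II in SM/J. H2-Aa was at 1800 and 1237 CPM for BL/6 (12 and 20 months) against 639 and 454 for SM/J. Cd74 was at 4746 and 3054 CPM for BL/6 against 2044 and 1331 for SM/J, and aliquots of the strains did not overlap for either gene at either age, where 35.2% and 35% of genes with a mean of 20 CPM or more did not. Between strains at 12 months, 6 of 10 members were 2-fold lower in SM/J, where 7.66% of all genes were: H2-Aa (-1.49), H2-Ab1 (-1.39), Cd74 (-1.22), H2-Eb1 (-1.04), Ciita (-1.62) and H2-Oa, whose ratio rests on 11 UMIs against 0. At 20 months 5 of 10 were lower, where 8.76% were, and H2-DMb2 was higher (4.26 against 17.7 CPM, 20 and 16 UMIs), where 7.17% were. H2-DMa was lower by 0.47 and 0.12 only. Counted only over members with a mean of 20 CPM or more, a limit chosen after the values were seen, 5 of 7 and 4 of 7 were lower, where 2.15% and 2.31% of genes at that level were.

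The strain difference in classical monocytes depended on which cells were counted. BL/6 cells of the class came from cluster 2, and SM/J cells mostly from cluster 23 (131 and 107 cells, with 3 and 5 from cluster 2). With cells picked by markers in place of clusters (42 and 127 BL/6 cells, 48 and 89 SM/J cells), the core sum at 12 months was higher in SM/J, at 0.86. Of those 48 SM/J cells at 12 months, 28 lay in the dendritic cluster and 10 in the classical clusters, against 4 and 22 of 42 in BL/6. At a coarser clustering (resolution 0.5) the core sum at 20 months was level between strains at 0.20, and cells of the dendritic cluster then made up 19 of 117 SM/J cells and 40 of 501 BL/6 cells.

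With age, classical monocytes had lower class II in both strains by the main clustering, mostly by less than 2-fold. In BL/6 every member was lower at 20 months, with a median of -0.55 beside 0.04 over all genes, and 1 of 10 passed 2-fold, H2-DMb2 at 10.3 and 4.26 CPM, where 3.2% of all genes were lower by as much. In these BL/6 cells B cell markers summed to 129 and 99.7 CPM and cavity-type macrophage markers to 284 and 374, each with aliquots apart. Conventional dendritic markers summed to 78.6 and 82.4 CPM, with aliquots overlapping. The part of these sums was not tested. In SM/J the core sum was at 3931 and 2549 CPM (-0.62, -0.70 to -0.55), and 0 members passed 2-fold, where 12.8% of all genes did. At resolution 0.5, cells of the dendritic cluster made up 5 of 119 SM/J cells at 12 months and 19 of 117 at 20 months. The SM/J direction with age is therefore given for the main clustering only. Class II UMIs were unequally spread over the cells. In BL/6 the median cell gave 0.519% of its UMIs to the core genes at 12 months and 0.0444% at 20 months, and the 10% of cells with the most core UMIs held 37.1% and 56.5% of them. In SM/J the medians were 0.0318% and 0.0152%, and those 10% held 75.9% and 69.5%.

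In BL/6, nonclassical monocytes, which patrol the vessel wall, gave the largest age difference of the core sum among the B cell and monocyte classes. H2-Aa was at 497 CPM at 12 months (aliquots 355 to 593) and at 128 at 20 months (102 to 166), a log2 ratio of -1.95 (-2.09 to -1.80). H2-Ab1 went from 399 to 99.7 CPM (-1.99), H2-Eb1 from 353 to 76.1 (-2.20) and Cd74 from 1842 to 576 (-1.68), and aliquot ranges of the ages did not overlap for any of the 6 members with a mean of 20 CPM or more, where 30.5% of such genes did not. These 4 of 10 members were 2-fold lower, where 2.68% of all genes were. The count was 7 or 8 under 5 other ways of choosing the cells, each of which added H2-DMa, H2-DMb1 and Ciita. H2-DMa (-0.97) and Ciita (-0.84, 25 and 29 UMIs) were lower by less. The members' median was -0.90, beside 0.05 over all genes. The core sum gave -1.81 and lay between -2.07 and -1.12 over all settings tried.

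SM/J nonclassical monocytes had low class II at both ages. H2-Aa was at 146 and 165 CPM (0.18), H2-Ab1 at 126 and 97.5 (-0.37), H2-Eb1 at 138 and 140 (0.02) and Cd74 at 512 and 566 (0.15), with aliquot ranges overlapping for all 4, as for all but 16.9% of genes with a mean of 20 CPM or more. Only H2-Oa, with 6 and 0 UMIs, passed 2-fold lower, where 7.52% of all genes did. Strain ratios followed: at 12 months 4 of 10 members were 2-fold lower in SM/J, where 4.53% of all genes were, all core genes (-1.35 to -1.85), and H2-DMb2 was higher (3.36 against 13.7 CPM), where 10.2% were. At 20 months no core gene was 2-fold different (-0.03 to 0.87). H2-Oa alone was lower, on 6 against 0 UMIs, where 8.34% were, and H2-DMb2 alone higher, on 7 against 9 UMIs, where 5.46% were. The difference between the strains in their age ratio was not tested. BL/6 cells came mostly from cluster 3 and SM/J cells mostly from cluster 21, with 2 or 3 cells per library from the other. B cell markers summed to 855 and 490 CPM in the SM/J cells against 110 and 118 in BL/6, none of the 9 at 0, and Cd22 alone made up 568 and 322 of it. Leaving out cells with 2 or more B cell markers left the BL/6 age ratio at -1.90.

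**Figure D4:**
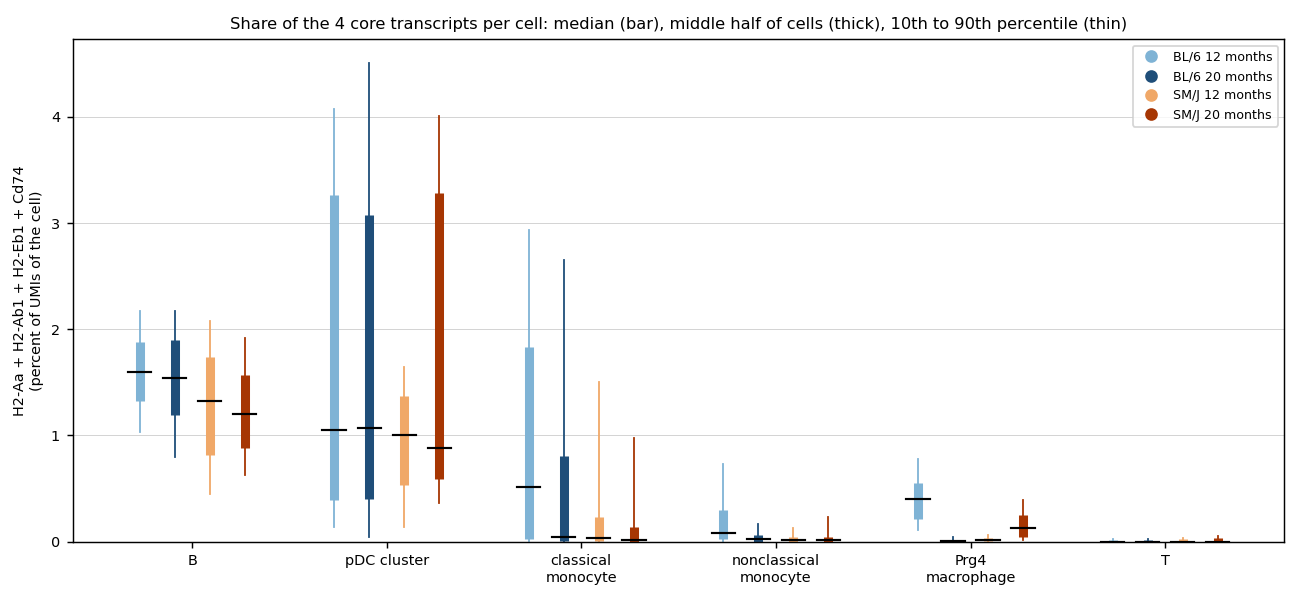
Share of each cell's UMIs that came from H2-Aa, H2-Ab1, H2-Eb1 and Cd74, in percent, by class and library: short black bars are medians, thick lines the 25th to 75th and thin lines the 10th to 90th percentile of cells. The B cell medians, up to 1.59%, are above those of both monocyte classes in every library, and the medians of nonclassical monocytes are 0.0802% in BL/6 at 12 months and 0.0143% to 0.0222% in the others.

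Cavity-type macrophages, resident cells of the body cavities that carry Prg4, Gata6 and Timd4, were class II low in 3 libraries by median cell. The median cell gave 0.398% of UMIs to the core genes in BL/6 at 12 months (29 cells), 0.00731% in BL/6 at 20 months, 0.0166% in SM/J at 12 months and 0.125% in SM/J at 20 months (397 cells). The sums were 4139, 1012, 742 and 1946 CPM, but the 10% of cells with the most held 93.1% of the core UMIs in BL/6 at 20 months and 84.1% in SM/J at 12 months. In those libraries 14 of 38 and 8 of 35 cells had no core UMI, against 0 of 29 in BL/6 at 12 months and 11 of 397 in SM/J at 20 months. Aliquot sums ran from 96.8 to 2261 CPM in BL/6 at 20 months and from 107 to 1199 in SM/J at 12 months, and those sums were 352 CPM without the third aliquot and 301 without the second. The aliquots of BL/6 at 12 months (3312 to 5793 CPM) lay above those of the other libraries. Thinned to 1000 UMIs, 89.7% of BL/6 cells at 12 months had a Cd74 UMI (72.6% to 97.8%), 15.8% at 20 months, and 8.57% and 50.6% of SM/J cells, against 5.49% to 7.92% of T cells. The SM/J share at 12 months lay within its counting error (1.80% to 23.1%) of the T cell share of 6.41%. Unthinned, the shares were 100%, 52.6%, 62.9% and 94.0% against 20.6% to 27.6%, at median depths of 12944 to 16083 UMIs against 4002.5 to 5203.

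DM transcripts were seen in these macrophages, and DO transcripts did not exceed their T cell range taken over all libraries. H2-DMa was at 143, 80.1, 118 and 131 CPM in the order above. H2-Oa was at 0 to 4.03 CPM (0 to 4 UMIs) and H2-Ob at 0 to 4.03 CPM (0 to 18 UMIs), against 1.00 to 5.57 and 1.00 to 12.4 CPM in T cells. The top of the T cell range of H2-Ob came from BL/6. Within SM/J at 20 months H2-Ob was higher in macrophages (18 of 5823544 UMIs) than in T cells (1 of 999082). Ciita was at 48.3 CPM in BL/6 at 12 months (24 UMIs) and at 3.78 in SM/J at 20 months (22 UMIs), so Ciita per Cd74 was 0.0221 and 0.00374. The 9 B cell markers summed to 199, 222, 352 and 426 CPM, and the aliquots of the SM/J ages overlapped (318 to 505 and 308 to 570). None of the 9 was at 0 in SM/J at 20 months, the library with the most cells of this class, against 2 to 4 in the others. Cd79a of that list was at 84.8 CPM in SM/J at 20 months against 5.11 to 15.5, and Ighm, outside it, at 374 against 18.1 to 42.6. Their part in the class II levels was not tested. Without cells holding 2 or more B cell markers the core sum of SM/J at 20 months was 1686 CPM. Of the cells near the limit, 2 had 4 and 2 had 5 UMIs of Prg4, and a limit of 2 UMIs raised the SM/J sums to 3049 and 3013 CPM.

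The dendritic cluster held cells of very unequal class II level. Its median cell gave 1.05% and 1.07% of UMIs to the core genes for BL/6 against 1.00% and 0.886% for SM/J, while the upper quartile was 3.26% and 3.08% in BL/6, 1.37% in SM/J at 12 months and 3.28% in SM/J at 20 months. Split, after this was seen, by the plasmacytoid marker Siglech, cells without a UMI of it had medians of 3.11%, 3.08%, 3.12% and 3.31% (16, 27, 4 and 19 cells). Cells with Siglech had 0.311%, 0.473%, 0.992% and 0.651% (13, 26, 45 and 27 cells). Of the markers of conventional dendritic cells, Zbtb46 was higher without Siglech in all 4 libraries (76.5, 35.3, 27.5 and 8.69 CPM against 19.4, 14.0, 0 and 0). Itgax was higher without it in 3 libraries (76.5, 70.5, 0 and 8.69 CPM against 25.8, 55.9, 17.4 and 0). The other markers went both ways. Cd209a was at 382, 663, 660 and 122 CPM in cells without Siglech and at 51.6, 220.0, 275 and 259 in cells with it. Clec9a was at 137, 7.05, 165 and 4.34 CPM without it, against 123, 87.3, 69.5 and 136 with it. Flt3 was at 306, 106, 110.0 and 8.69 CPM without it, against 213, 182, 101 and 221 with it.

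T cells had traces of most members. As a share of the B cell level of the same library, the members' median was 1.01%, 1.03%, 1.07% and 2.51%, beside 0.345%, 0.590%, 1.04% and 1.72% for the 9 B cell markers. H2-DMa stood above these medians at 8.52%, 10.0%, 6.08% and 12.0% of the B cell level, with T cell levels of 29.0, 27.2, 19.7 and 29.0 CPM (29 to 83 UMIs). The highest of the 9 B cell markers was Cd22 in the first 3 libraries (2.57%, 2.62% and 8.83%) and Fcmr in SM/J at 20 months (4.6%). Ighm, a B cell gene outside that list, was at 3.57%, 3.98%, 6.14% and 2.68%, so in SM/J at 12 months both Cd22 and Ighm exceeded H2-DMa. In BL/6 T cells H2-Ob was at 8.45 and 12.4 CPM and H2-Oa at 3.62 and 5.57, or 2.37% to 4.73% of B cells. The ratio of H2-DMa to H2-Ob was 3.43 (2.08 to 5.87) in T cells and 1.02 (0.971 to 1.08) in B cells of BL/6 at 12 months, while Cd74 to H2-Ab1 was 3.32 (2.35 to 4.76) and 3.85 (3.79 to 3.91). The intervals of H2-DMa to H2-Ob in the classes were apart in 3 libraries and overlapped in SM/J at 12 months (1.77 to 8.96 in T cells and 1.73 to 1.99 in B cells). Those of Cd74 to H2-Ab1 overlapped in 3 libraries and were apart in BL/6 at 20 months (2.09 to 3.75 in T cells and 3.79 to 3.98 in B cells).

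**Figure D5:**
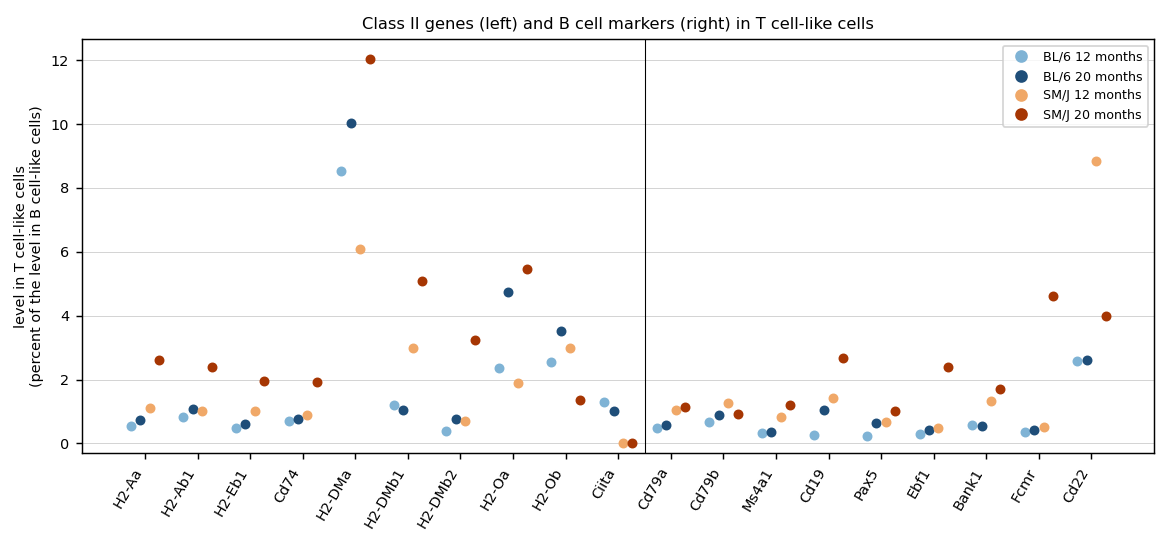
Level of each member in T cell-like cells as a percent of its level in B cell-like cells of the same library, beside the B cell markers, as a point for each library without counting intervals. H2-DMa lies between 6.08% and 12.0%, and the core genes lie between 0.476% and 2.63%.

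Other genes of the pathway were followed by lists. In BL/6 classical monocytes Irf1, a transcription factor that acts on Ciita, was at 89.3 and 34.3 CPM at 12 and 20 months. That was past 2-fold lower, where 3.2% of all genes were. The median of the 10 genes in its list of class II activators was -0.11, and the part of Irf1 in class II levels was not tested. Class I presentation genes were lower in BL/6 monocytes too: Tap1, Psmb9, Psmb8 and H2-K1 (4 of 8) were 2-fold lower at 20 months in BL/6 nonclassical monocytes, where 2.68% of all genes were, with H2-K1 at 2021 and 859 CPM and Tap1 at 106 and 29.4. In BL/6 classical monocytes Tap1, Psmb9 and H2-K1 (3 of 8) were, where 3.2% of all genes were. In SM/J 0 of 8 were in classical cells, where 6.32% of all genes were, or in nonclassical cells, where 7.52% were. SM/J was lower by less than 2-fold: medians of the 8 with age were -0.60 (classical) and -0.40 (nonclassical), beside -0.85 and -0.96 in BL/6. Between strains at 12 months Tap1, Psmb9 and Psmb8 (3 of 8) were 2-fold lower in SM/J nonclassical monocytes, where 4.53% of all genes were.

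In SM/J B cells at 20 months 3 of the 9 endosomal processing genes, all proteases, were 2-fold higher than in BL/6, and the median of the 9 was 0.37: Ctsd was at 80.8 against 19.7 CPM, Ctsb at 117 against 36.5 and Ctsz at 409 against 160 (where 10.1% of all genes were higher). Cavity-type macrophage markers in the same B cell classes summed to 83.5 CPM against 44.1, with aliquots that did not overlap and none of the 10 at 0, and to 145 in SM/J and 73.4 in BL/6 at 12 months. Their part in these levels was not tested. Ctsd was also higher than in SM/J at 12 months (21.0 CPM, 1 of 9, where 5.22% of all genes were). March1, the ligase that takes class II off the surface, was at 204 against 642 CPM (1 of 2 lower, where 13.4% of all genes were). Of the 5 costimulation genes, Icosl (1.84 against 37.3 CPM), Cd86 (105 against 298) and Cd40 (17.1 against 48.1) were lower (3 of 5, against 13.4% of all genes), and Cd274 (418 against 179) and Cd80 were higher (2 of 5, against 10.1%). At 12 months Icosl (11.5 against 38.0 CPM) and Cd86 (191 against 404) were lower in SM/J (2 of 5, where 4.72% of all genes were).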

How the data were processed

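The deposited files hold whole UMI counts per gene and cell and tag counts per tag oligo and cell, made by the authors with Cell Ranger 7.0.1, per the file headers. The submitters' processing notes name mm10 and Seurat 4.3.0. Annotation, cell calling and tag assignment: not given in the sources used here. The 2 gene expression samples (14250603 to 30627357 gene UMIs per library) were used through 4 matrices, and the tag counts only to divide cells into aliquots, which left 16 and 24 kept cells of the 12-month libraries without one.

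Cells with at least 500 UMIs, 200 genes and at most 10% mitochondrial UMIs were kept, and Scrublet doublets (0.775% to 1.34% of cells) were removed. Python 3.11.15, scanpy 1.11.5, igraph 0.11.9 and scikit-learn 1.9.0 clustered the cells on 2000 variable genes without class II or other H2 genes, 30 components and 15 neighbours (Leiden, resolution 1). Of 26 clusters, 2 stayed unnamed. A name needed at least 3 detected markers of its list. UMIs were summed per class and library as CPM. Ratios are log2(CPM + 1), for classes of at least 100 cells. Intervals are exact Poisson for levels, conditional binomial for ratios and Clopper-Pearson for shares, and cover counting error only. edgeR 4.0.16 gave TMM factors only, and no count test was run because a group was 1 library. The ratio and its interval were tested on simulated counts of a B cell comparison, and the other steps were not tested so.

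All 10 members are named. Genes of the pathway lists given as higher or lower were past 2-fold with at least 20 CPM in 1 library, with levels for at most 4 per list and comparison. Not every such gene or comparison is given, so one left out is not thereby under 2-fold. The most alike genes are the 5 with the highest correlation. The members, lists and rules were chosen with earlier results of these data known. The limit of a mean of 20 CPM, the split by Siglech, the B cell subset pairs and leaving out cells with B cell markers were chosen after values were seen. Alternatives changed 1 choice at a time. A result of the activator list is not reported here.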

Additional observations from a re-analysis of the deposited data

Results flagged for a closer look

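H2-Ob in B cell-like cells differed between the strains in its ratio of 20 over 12 months. The log2 ratio was -1.25 in SM/J and 0.09 in BL/6, so that SM/J minus BL/6 gave -1.337. Every SM/J aliquot at 20 months lay below those at 12 months, as ranges did not overlap for 70% of genes there. Every BL/6 aliquot at 20 months lay above those at 12 months, where ranges of 25.6% of genes did not overlap, but the BL/6 counting interval (-0.01 to 0.18) includes 0 and TMM scaling left 0.01. A rise in BL/6 is therefore not shown, and the difference between strains was not tested.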

How the results depend on the processing

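Counts here are members past 2-fold in either direction, and the cause of a change was not tested unless fewer members entered the count. In B cells the age count of SM/J (2) was 1 with the mean of scaled cells, 4 with a mitochondrial limit of 5%, 1 at resolution 0.5 and 0 in cells with a UMI of Fcer2a or Cr2. The B cell strain count at 12 months (2) was 1 at the 5% limit, 5 at resolution 0.5, 0 without the Zcwpw1 and Fras1 clusters and 0 in Fcer2a or Cr2 cells, where the count at 20 months (4) was 2. A limit of 1.5-fold gave 4 for the SM/J age count and 5 for the strain count at 12 months.

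In classical monocytes the BL/6 age count (1) was 0 with the 20 CPM limit, a pseudocount of 10 CPM, scaled cells, doublets kept, marker gates, or cells with 2 or more B cell markers left out, 3 at resolution 0.5 and 4 at 1.5-fold. The SM/J age count (0) was 1 with the 5% limit, class II genes kept in the clustering, the mean of aliquots or B-marker cells left out, 4 at resolution 0.5, 3 with marker gates and 2 at 1.5-fold. The strain counts (6 and 6) were 1 and 1 with marker gates, and 2 at resolution 0.5 at 20 months. Marker gates reversed the 12-month strain ratios of H2-Aa (0.74), H2-Ab1 (0.54), H2-Eb1 (0.97), Cd74 (0.97), H2-Oa (0.27) and the core sum (0.86), the 20-month ratios of H2-Eb1 (0.52) and Cd74 (0.00783), and the BL/6 age ratio of H2-DMb2 (0.0877). Resolution 0.5 reversed the 20-month ratios of H2-Aa (0.00107), H2-Ab1 (0.0583), H2-Eb1 (0.60), Cd74 (0.17) and the core sum (0.20).

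In nonclassical monocytes the BL/6 age count (4) was 7 at the 5% limit, at resolutions 0.5 and 2 and with class II genes kept, and 8 with doublets kept or at 1.5-fold. The SM/J age count (1) was 0 with the 20 CPM limit or the pseudocount of 10, 2 with doublets kept or the mean of aliquots, 4 with marker gates, and 3 with a mitochondrial limit of 20%, both other resolutions, class II genes kept, the T cell level subtracted, 1.5-fold or B-marker cells left out. The strain count at 12 months (5) was 9 at the 5% limit and 8 with marker gates. At 20 months (2) it was 0 with the 20 CPM limit or the pseudocount of 10, 1 with scaled cells or resolution 2, and 4 at the 5% limit, with marker gates or at 1.5-fold, and the gates reversed H2-DMb2 (-0.46). In T cells doublets kept reversed H2-Ob with age in SM/J (0.54), marker gates H2-DMb2 (-0.0455), and Ciita between strains at 20 months reversed at the 5% limit (0.35) and with doublets kept (0.10).

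Leaving out each aliquot in turn gave 0 to 0 and 2 to 2 for the B cell age counts of BL/6 and SM/J, and 2 to 2 and 4 to 4 for the strain counts at 12 and 20 months. In classical monocytes the same 4 counts ranged from 0 to 1, 0 to 2, 5 to 7 and 5 to 7, and in nonclassical monocytes from 4 to 5, 1 to 3, 5 to 6 and 1 to 4. Of 2514 alternative ratios outside T cells, 1824 held, 675 moved and 15 reversed, where only a ratio past 2-fold was counted as reversed. Smaller ratios that changed sign, such as H2-DMa, H2-Aa and H2-Eb1 in B cells under TMM scaling, were counted by how far they moved. The 20 CPM limit and the removal of B-marker cells were added after the data were seen. No paired analysis was possible because a group was 1 library. Members with few UMIs, H2-Oa, H2-Ob and H2-DMb2 outside B cells, are limited by depth.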
